A study of Mus musculus with 4 samples.

Results

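The cells described here are the Bnc2 and Zfhx3 excitatory nuclei neurons of the embryonic mouse cerebellum, 867 of 12546 cells that passed the cell filters. Members were chosen by measured counts: a member had at least 2 unique molecular identifiers (UMIs, counted molecules) of Meis2 and more of Meis2 than of Pax6, and none of Olig2, Tbr1 or Lmx1a. The summed UMIs of Bnc2, Npnt, Cntnap5a, Vstm2l and Zfhx3 had to reach 2 and to exceed the sums of 4 competing gene sets, which mark Gria1 and Col25a1, Grm5 and Bcl11b, Rflna and Hopx, and Foxp2 and Nr4a2 neurons. Members numbered 177 and 505 in control replicates 1 and 2 and 113 and 72 in the knockout replicates 1 and 2. The gene sets came from an earlier clustering of these same cells, so the levels of the rule's genes are descriptions, and a difference from the other classes is no independent sign that the cells are a type.

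All libraries were made from tdTomato-positive cells sorted by flow cytometry from the cerebellum at E14.5, the embryonic stage of all libraries. Controls carried Atoh1-Cre/+ and R26LSL-tdT/+, so Cre under Atoh1 control switched on the reporter in cells of the Atoh1 lineage. The En1/2 conditional knockout (CKO) carried the same alleles and, in addition, floxed En1 and En2 on both chromosomes, which the same Cre deletes. Deletion and labelling are therefore limited to that lineage, and each library pooled several animals. There are 2 libraries a group, and the labels do not say which of them share a litter or a day.

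Excitatory neurons of the cerebellar nuclei are born early in the upper rhombic lip and form the main output of the cerebellum; granule cells follow later from the same lip. Meis2 marks the nuclei neurons and Pax6 the granule cell lineage. En1 and En2 encode Engrailed homeodomain proteins, which act mainly as transcriptional repressors and recruit Groucho/TLE co-repressors. Bnc2 encodes a zinc finger protein, Zfhx3 a large zinc finger and homeodomain transcription factor, Npnt the matrix protein nephronectin, a ligand of integrins, Cntnap5a a contactin-associated membrane protein, and Vstm2l a small immunoglobulin-domain protein.

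The libraries held 14998150 to 33709450 UMIs each and differed in depth and in the RNA they carried. Kept cells had median depths of 2734 and 2122 UMIs in controls and 5352 and 5544 in the CKO libraries, but members were alike, at 2939, 2440, 2587 and 2549. Members over 10000 UMIs numbered 2 and 2 in controls and 15 and 6 in the CKO libraries, where they held 58.3% and 42.9% of all member UMIs against 4.95% and 2.22%. A small number of deep cells thus weighs heavily in the CKO sums, and results are given with and without them, at a limit set after the data were seen. Xist stood at 1.66 CPM (the UMIs of a gene scaled to the total UMIs of the summed cells) in members of control replicate 1 and at 770 to 2188 CPM in the other libraries, an imbalance between the control libraries that follows no group. Haemoglobin RNA, which neurons should lack, stood at 281 CPM in members of control replicate 2 and at 3.03 to 21.6 CPM elsewhere. No member barcode was shared between any pair of libraries.

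Of the genes that define the members, Zfhx3 carried most of the signal. Zfhx3 (ENSMUSG00000038872; GRCm38 chr8:107942644-108961630, plus strand) supplied 60.5% to 64.2% of the members' marker UMIs in each library. It had a UMI in 94.4% and 95.2% of control members and in 93.8% and 83.3% of CKO members. Bnc2 (ENSMUSG00000028487; chr4:84275095-84675275, minus strand) was found in far fewer, 26.0% and 22.2% of control members and 26.5% and 19.4% of CKO members. Npnt (ENSMUSG00000040998; chr3:132881745-132950291, minus strand) had a UMI in 20.9%, 18.6%, 26.5% and 15.3% in the same order. Cntnap5a was found in 32.7% to 46.9% and Vstm2l in 30.6% to 48.0% of members. For 233 of the 867 members Zfhx3 was the only one of the 5 genes detected, and 53 members had no Zfhx3 UMI. The label thus names a Zfhx3-led population in which a Bnc2 UMI is seen in at most 26.5% of the cells at this depth.

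**Figure D1:**
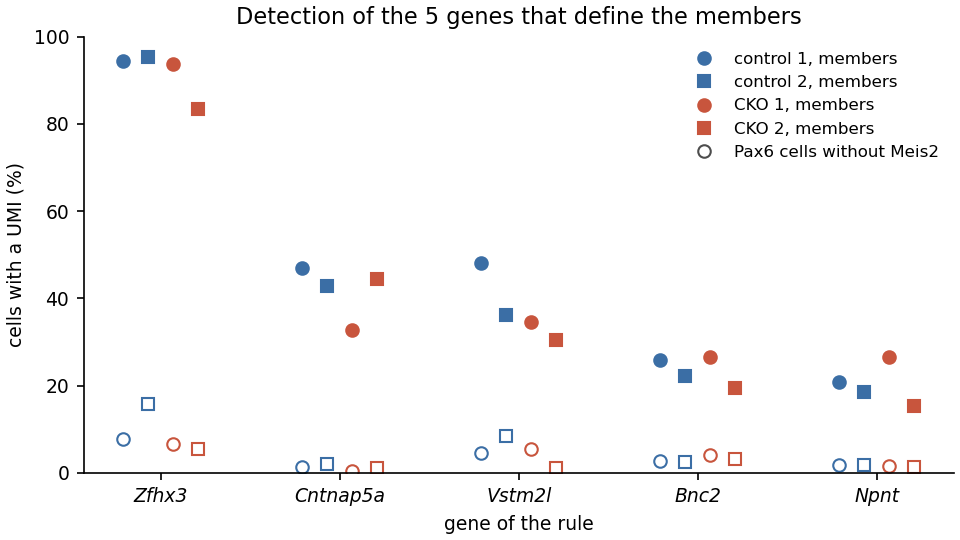
Percentage of cells (vertical axis) with a UMI of each of the 5 genes that choose the members (horizontal axis), as filled points for members and open points for cells with at least 2 Pax6 UMIs and no Meis2 UMI, in the 2 control and 2 CKO libraries. Zfhx3 lies between 83.3% and 95.2% in members, while Bnc2 and Npnt stay at or under 26.5%.

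As a reference, the same genes were read in cells with at least 2 Pax6 UMIs and no Meis2, taken here as granule lineage cells. Members were picked by these 5 genes and the Pax6 cells by a lack of Meis2, so a gap between them does not measure free RNA. The sums are a description. The Pax6 cells had median depths of 3348 and 2302 UMIs in controls and 12577 and 10137 UMIs in the CKO libraries. In these cells the 5 genes summed to 32.7, 124, 16.9 and 15.1 CPM, against 2172, 2345, 1329 and 1274 CPM in members. The members' sum was lower in both CKO libraries, but members of up to 10000 UMIs had 2241 and 2383 CPM in controls and 2188 and 1918 CPM in the CKO libraries. The lower sum thus lay mainly with the deep members, whose marker level was 714 and 417 CPM in the CKO libraries. Near the threshold, 166 members had a marker sum of exactly 2, and 181 reached 10 or more. Just outside it, 158 cells had a sum of 1, 75 were tied with another class and 154 fell below one.

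The label was then checked against genes that the rule did not use. Lhx9, a LIM homeodomain factor of early nuclei neurons, had a UMI in 68.4% and 73.1% of control members and 66.4% and 63.9% of CKO members. Slc17a6, the vesicular glutamate transporter of these neurons, had one in 55.9%, 47.3%, 51.3% and 52.8%. Each cell was also thinned to 1500 UMIs, which left 175, 450, 96 and 65 members and 1027, 318, 540 and 1801 of the Pax6 cells. After thinning, Slc17a6 was seen in 29.2% to 38.5% of members and 3.9% to 15.7% of the Pax6 cells (unthinned 49.6% to 56.0% and 14.05% to 23.7%). Of the 8 markers listed for GABAergic neurons, Ptf1a and Skor2, factors of that lineage, were at 0 in all members. Gad1, which makes GABA, had a UMI in 0.2% of members of control replicate 2 and in none elsewhere, while Gad2, its relative, had one in 2.26%, 1.58%, 4.42% and 0%. Lhx1, a LIM homeodomain factor, had a UMI in 6.78%, 3.56%, 1.77% and 11.1%. The whole list summed to 63.1, 52.5, 28.6 and 51.6 CPM in members, above the 30.6, 39.1, 8.68 and 20.3 CPM of the Pax6 cells in each library. A count of 0 here limits cells with a UMI, up to 1.69%, 2.65% and 4.17% for Gad1 in the 177, 113 and 72 members without one, and not cells that express the gene. The marker lists for microglia (6 genes) and for endothelium and mural cells (6 genes) summed to 6.5 CPM or less in every library. The list for radial glia and astroglia (6 genes) was higher, at 394 and 322 CPM in control members and 724 and 570 CPM in CKO members. The Pax6 cells had 1117, 734, 1806 and 1188 CPM of it. Without members over 10000 UMIs it summed to 372, 316, 331 and 298 CPM in members. All 9 genes listed for excitatory nuclei neurons were detected in members of all 4 libraries. Meis1 stood at 306 and 302 CPM in control members and 548 and 591 CPM in CKO members. The Pax6 cells had 508 and 720 CPM and 492 and 504 CPM, so Meis1 was lower in control members. Stmn2 was lower in members of control replicate 2 only (1888 against 2028 CPM). The rest of the list, which includes the rule's Meis2, was higher in CPM in members of every library.

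Granule lineage RNA was present as well. The granule cell list summed to 1567 and 1185 CPM in control members and 2201 and 2690 CPM in CKO members, against 3161 to 3774 CPM in the Pax6 cells. Without members over 10000 UMIs the sums were 1549, 1175, 1727 and 2380 CPM, still higher in both CKO libraries. The list for dividing cells gave 279, 181, 645 and 507 CPM in all members, and 288, 173, 110 and 159 CPM without the deep ones, where the order of the groups turned. Cells with at least 2 UMIs of 6 cycling genes made up 7.4% and 4.2% of thinned control members and 4.2% and 4.6% of thinned CKO members. In the Pax6 cells those shares were 25.1% to 34.3%. Unthinned, the shares were 8.33% to 16% of those members and 34.3% to 54.3% of those Pax6 cells. The part of these RNAs in the differences between CKO and control below was not tested.

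Detection of the 5 genes overlapped unevenly, which is a description of genes the rule used. Cntnap5a was seen in 73.9% of members with a Bnc2 UMI and 37.4% of members without one in control replicate 1. The pairs were 66.1% and 36.1% in control replicate 2, 43.3% and 28.9% in CKO replicate 1, and 57.1% and 41.4% in CKO replicate 2. Median depths of the members with and without Bnc2 were within 200 UMIs of each other in every library. The medians do not show the deep members. In CKO replicate 1 the 30 members with Bnc2 held 318094 UMIs and the 83 without it held 311482. In CKO replicate 2, 14 members with Bnc2 held 99128 UMIs and 58 without it held 230573. Npnt was seen with Bnc2 more often in 3 libraries and less often in CKO replicate 2, where only 14 members had Bnc2.

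Members were next divided by a UMI of Npnt. Members with and without an Npnt UMI were compared over 4269 genes with at least 50 CPM on average on either side, leaving out the rule's genes. In all 4 libraries 457 genes were lower and 355 were higher with Npnt, and 8 were lower by at least 1 on the log2(CPM + 10) scale in every library, while 0 were higher by as much. Similar numbers were lower and higher in all 4 libraries when members were divided by Vstm2l (370 and 328 of 4188), Bnc2 (377 and 236 of 4226) or Cntnap5a (340 and 257 of 4174), so the number of genes on one side is not particular to Npnt. The genes named next were picked for that consistency, so their values are a description. Lhx2, a LIM homeodomain factor, stood at 89.4, 125, 93.1 and 52.2 CPM with Npnt and 282, 308, 410 and 316 CPM without it, in the order control replicates 1 and 2, CKO replicates 1 and 2. Robo3, a receptor that lets commissural axons cross the midline, stood at 8.94, 76.5, 116 and 117 CPM with Npnt and 255, 182, 393 and 565 CPM without. The groups did not overlap for either gene.

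Other transcription factors followed the same split. Uncx, a homeodomain factor, was at 62.6 to 149 CPM with Npnt and 216 to 419 CPM without. Ebf2, a helix-loop-helix factor of differentiating neurons, was at 0 to 52.4 CPM with Npnt and 79.6 to 174 CPM without. Adcyap1, which encodes the neuropeptide PACAP, and Rassf4 were lower with Npnt in all 4 libraries too. On the other side, Ank2, an ankyrin of axon membranes, was at 428 to 1323 CPM with Npnt and 147 to 674 CPM without. Pdzrn4, Opcml, a cell adhesion protein, and Ndst4, a heparan sulfate enzyme, were also higher with Npnt in every library. So were 2 genes of dividing cells, Pclaf, at 116, 64.5, 191 and 157 CPM with Npnt and 34.7, 29.8, 69.9 and 83.0 CPM without, and Tpx2, at 24.2 to 144 CPM with and 9.63 to 51.4 CPM without. The part of dividing-cell RNA in the split was not tested. Only 37, 94, 30 and 11 members had Npnt. Without members over 10000 UMIs, Lhx2 (34.8 to 125 CPM with Npnt, 235 to 289 without), Uncx and Ebf2 kept that order in all 4 libraries, Robo3 also did, and Ndst4 was at 0 on both sides in CKO replicate 1. There Pclaf was higher with Npnt in 3 libraries and lower in CKO replicate 1 (26.5 against 37.4 CPM), and Tpx2 was listed at 0 with Npnt in CKO replicate 2.

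**Figure D2:**
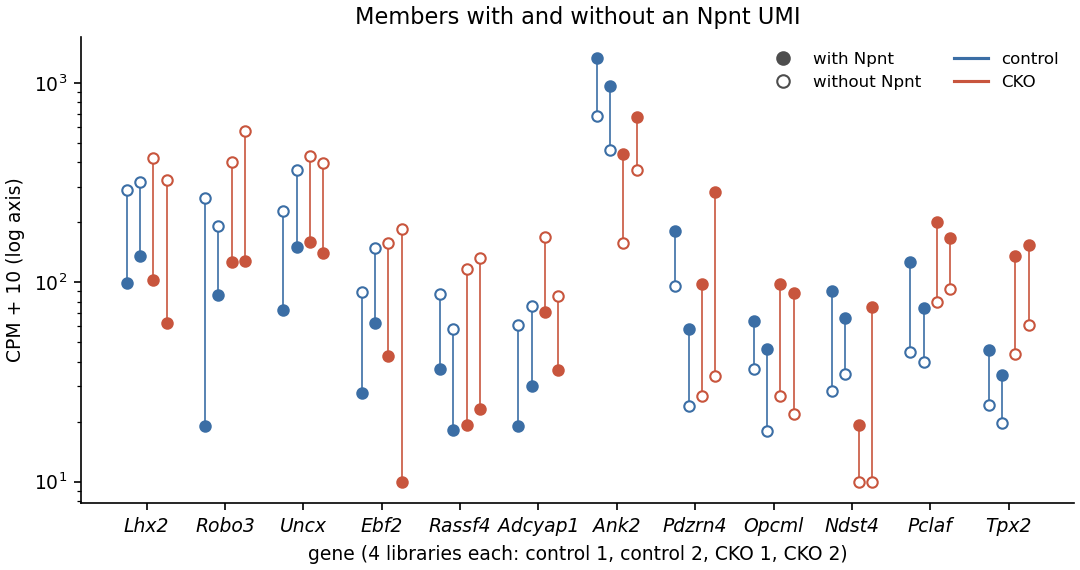
Level of 12 genes (CPM + 10, log axis) in members with an Npnt UMI (filled) and without one (open); a line joins the pair of each library, in blue for controls and red for CKO. Lhx2, Robo3, Uncx, Ebf2, Rassf4 and Adcyap1 are lower with Npnt in all 4 libraries, and Ank2, Pdzrn4, Opcml, Ndst4, Pclaf and Tpx2 higher.

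A Bnc2 UMI went with another, smaller set of differences. Lhx1, a LIM homeodomain factor, was at 0 CPM in members with Bnc2 in 3 libraries and 6.4 CPM in control replicate 2, against 68.2, 40.8, 38.5 and 69.4 CPM in members without it. The counts of 0 allow up to 20.3, 9.43 and 30.3 CPM, a limit by UMIs and not by cells. Of all members, 12, 18, 2 and 8 had an Lhx1 UMI, and they held 31, 46, 12 and 16 UMIs. The difference thus rests on few cells, in CKO replicate 1 on 2. Th, which encodes tyrosine hydroxylase, stood at 40.7, 38.4, 56.6 and 40.4 CPM with Bnc2 and 211, 170, 103 and 73.7 CPM without. Ebf2 was lower with Bnc2 as well. Genes lower by at least 1 on the log2 scale in every library numbered 2 of 4226 for Bnc2, and 0 for the splits by Cntnap5a and by Vstm2l.

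Members made up a lower share of the nuclei neurons in the CKO libraries, by a margin that moved with depth. Of the cells that met the Meis2 part of the rule, members were 44.0% (95% Wilson interval 39.3% to 48.9%) and 34.5% (32.1% to 37.0%) in the controls. In the CKO libraries they were 30.5% (26.0% to 35.3%) and 27.8% (22.7% to 33.5%). The means were 39.3% ± 6.73 and 29.1% ± 1.88 (SD, n = 2 each), a log2 ratio of −0.43, and both CKO libraries lay below both controls. The intervals of control replicate 2 and CKO replicate 1 overlapped. An exact permutation test of 2 libraries against 2 cannot give a two-sided p under 0.333, so no test was made. Thinned to 1500 UMIs, the shares were 38.4% and 30.3% against 22.9% and 20.3%. Without cells over 10000 UMIs they were 44.5% and 34.5% against 35.5% and 29.9%, and the groups overlapped.

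The share of all kept cells was 6.08% and 12.8% in controls and 5.63% and 1.95% in the CKO libraries. It follows the mix of the whole sort, in which the Meis2 cells themselves ranged from 13.8% and 37.2% in the controls to 18.5% and 7.01% in the CKO libraries. Within the 5 classes together, members were 69.5% ± 1.87 of control cells and 49.8% ± 7.83 of CKO cells (SD, n = 2 each), and 70.0% against 62.7% without cells over 10000 UMIs. A loss of members and a loss of their marker RNA cannot be told apart by these shares, since the rule counts the RNA.

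**Figure D3:**
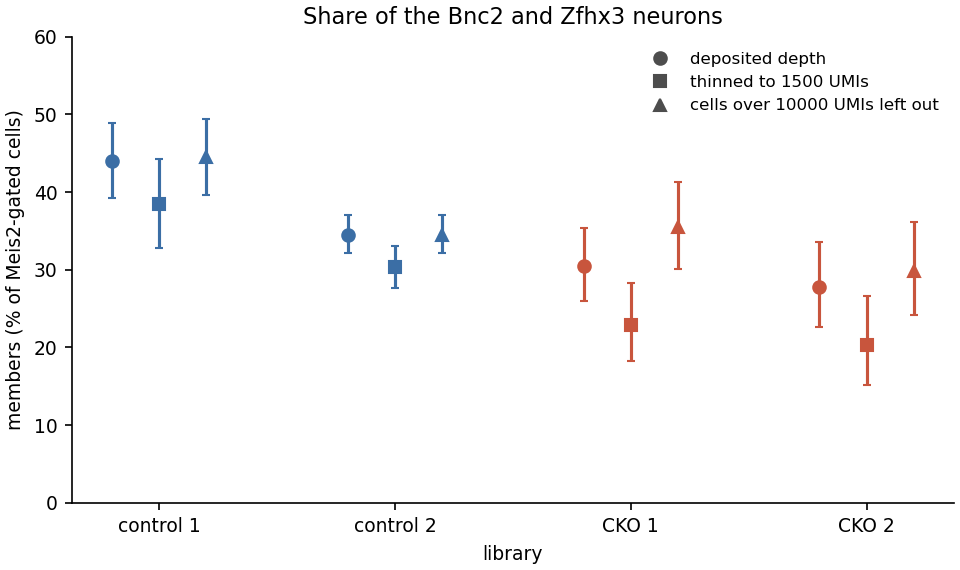
Members as a percentage of the cells that met the Meis2 part of the rule (vertical axis) in each library (horizontal axis), with 95% Wilson intervals, at the deposited depth, thinned to 1500 UMIs and without cells over 10000 UMIs. Both CKO libraries lie below both controls at the deposited depth and after thinning, and overlap with them without the deep cells.

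The deleted genes were read next, in UMI sums of the members per library, given as CPM scaled by TMM factors. En2 (ENSMUSG00000039095; chr5:28165694-28172166) stood at 231 and 248 CPM in controls and 56.1 and 29.7 CPM in the CKO libraries. It fell by 2.40 on the log2 scale (SE 0.30, adjusted p = 0.00238), and by 2.47 without members over 10000 UMIs. En1 (ENSMUSG00000058665; chr1:120602418-120607992) stood at 470 and 578 CPM in controls and 327 and 784 CPM in the CKO libraries, where the groups overlap. Its log2 change was 0.06 (SE 0.33, adjusted p = 0.975). Left out in turn, the libraries moved it from −0.69 without CKO replicate 2 to 0.57 without CKO replicate 1. The libraries read the 3′ ends of transcripts, and the labels do not say which part of either gene is floxed, so an En1 count does not check its deletion.

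CKO and control members differed in 38 of 8177 genes tested (0.465%), of which 32 rose (0.391%) and 6 fell (0.0734%) in CKO. The tool was edgeR's quasi-likelihood test with Benjamini-Hochberg adjustment, and a gene under 0.05 is called here. At an unadjusted p under 0.05 stood 836 genes, and in 40% of all genes tested the levels of the 2 CKO and the 2 control libraries did not overlap. The ephrin receptors Epha4, Epha3 and Epha5 had the lowest p-values. The co-repressors Tle2 and Tle4 and the protocadherin Pcdh17 fell, while the co-repressor Tle1 rose. Of the 32 genes that rose, 5 were histone genes by symbol, and 3 of the 6 markers listed for dividing cells rose. DESeq2 called 34 genes, 15 of them among the 38. Of the other 23, 1 had an adjusted p of 0.05 or more in DESeq2 and 22 were given none, and all 38 had the same sign.

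Eph receptors are tyrosine kinases that guide axons and sort cells by contact with ephrins on their neighbours. Epha4 (ENSMUSG00000026235; chr1:77367185-77515088, minus strand) stood at 32.3 and 56.1 CPM in control members and at 324 and 253 CPM in CKO members. The CKO libraries lay far above both controls, 44.2 ± 16.8 against 288 ± 50.2 CPM (SD, n = 2 each), which makes a log2 change of 2.64 (SE 0.29, adjusted p = 0.00207). Without members over 10000 UMIs the levels were 34.8, 57.6, 559 and 376 CPM and the log2 change 3.28 (SE 0.29). After thinning, 4.57% (95% Wilson interval 2.33% to 8.76%) and 5.78% (3.97% to 8.33%) of control members had an Epha4 UMI, and 37.5% (28.5% to 47.5%) and 33.8% (23.5% to 46.0%) of CKO members. Unthinned, those shares were 8.0% and 11.3% against 60.4% and 43.1%. In the thinned Pax6 cells the share was 1.17%, 2.20%, 2.22% and 2.17% (unthinned 4.58%, 3.46%, 11.7% and 11.4%). The rise of Epha4 thus stood in the shallow members as well, and at equal depth few Pax6 cells held its RNA in either group.

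Epha5 (ENSMUSG00000029245; chr5:84054761-84417382, minus strand) stood at 163 and 152 CPM in controls and 612 and 591 CPM in CKO members. That is 158 ± 8.03 against 602 ± 14.46 CPM (SD, n = 2 each), a log2 change of 1.94 (SE 0.24, adjusted p = 0.00229). Without the deep members it was 1.44 (SE 0.24, adjusted p = 0.00535). The thinned share of members with a UMI rose from 18.3% and 13.6% to 42.7% and 49.2% (unthinned 25.7% and 22.9% to 77.1% and 66.2%). The Pax6 cells held Epha5 in 72.4% to 80.2% of cells in all 4 libraries, and the part of granule lineage RNA in this rise was not tested.

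Epha3 (ENSMUSG00000052504; chr16:63543534-63864175, minus strand) stood at 12.9 and 10.5 CPM in controls and 86.5 and 89.1 CPM in CKO members, a log2 change of 2.93 (SE 0.34, adjusted p = 0.00214). The rise was much smaller outside the deep cells, where the counts were too few for a test. Members over 10000 UMIs held 128 and 191 CPM of Epha3 in the CKO libraries, while the other members held 26.6 and 15.9 CPM, against 13.98 and 10.3 CPM in the controls, so both CKO libraries still lay above both controls. Epha4 showed the reverse, with 142 and 91.9 CPM in the deep CKO members and 571 and 383 CPM in the rest. In the Pax6 cells 24.8% to 41.7% had an Epha3 UMI after thinning, and 1.11% to 6.15% of members did (unthinned 38.1% to 88.1% and 3.11% to 12.3%).

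Draxin, a secreted axon repellent that binds Dcc, was the fourth axon guidance gene that rose, with a log2 change of 1.27 (SE 0.25, adjusted p = 0.0393). Without the deep members its adjusted p was 0.347. Of the 42 axon guidance genes listed, 33 were tested, 4 rose and 0 fell, while 0.391% of all genes tested rose and 0.0734% fell. Without the deep members 29 were tested, 2 rose (Epha4 and Epha5) and 0 fell. In all members the list had a median log2 change of −0.01 beside 0.001 over all genes. Dcc, the netrin receptor, was at 569 ± 54.2 and 591 ± 114 CPM (SD, n = 2 each; log2 change 0.05). Robo1 and Robo2, the Slit receptors, had log2 changes of −0.20 and −0.18, and neither was called. Robo3 had one of 1.00 (adjusted p = 0.107).

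The Epha5 promoter is printed because it holds a TAATTA, the core that Engrailed-type homeodomains bind. The Bnc2 promoter is printed beside it as the other of the 12 genes looked at that has one. Both are RefSeq sequences of GRCm38.p6 from 250 bases before to 50 bases after a listed start, on the minus strand, 5′ to 3′, with the TAATTA in capitals. They lie at chr5:84417333-84417632 and chr4:84610148-84610447, and the listed Bnc2 start falls within the longer GENCODE gene.
Epha5: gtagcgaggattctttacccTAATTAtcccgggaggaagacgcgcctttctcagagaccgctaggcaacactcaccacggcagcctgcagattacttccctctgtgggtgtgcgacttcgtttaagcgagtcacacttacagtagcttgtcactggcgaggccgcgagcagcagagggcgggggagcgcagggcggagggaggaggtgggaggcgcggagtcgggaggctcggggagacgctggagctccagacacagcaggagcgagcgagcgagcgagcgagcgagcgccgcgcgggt
Bnc2: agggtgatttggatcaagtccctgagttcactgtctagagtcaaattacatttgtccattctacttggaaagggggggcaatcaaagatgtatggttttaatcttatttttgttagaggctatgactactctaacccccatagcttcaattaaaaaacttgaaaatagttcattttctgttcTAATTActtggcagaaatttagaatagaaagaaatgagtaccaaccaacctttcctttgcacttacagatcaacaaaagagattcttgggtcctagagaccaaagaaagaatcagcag
The match starts 230 bases before the start in Epha5 and 68 bases before it in Bnc2. TAATTA reads the same on both strands and occurs in 5.29% of 32851 promoters of this length. The windows of Epha3, Epha4, Tle1, Tle2, Tle4, Pcdh17, Tgfb2, Npnt, Zfhx3 and Meis2 have no TAATTA, and none of the 12 has TGACAG, a core that Meis-type proteins bind, on either strand, which 19.2% of promoters hold. Bnc2, whose counts the rule used, stood at 140 and 127 CPM in all control members and 74.7 and 91.0 CPM in all CKO members. These are letter matches in short windows, and no binding was measured. A link between the matches and the levels in CKO members was not tested.

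TLE proteins are Groucho-type co-repressors without DNA binding of their own; Engrailed proteins recruit them. Tle4 (ENSMUSG00000024642; chr19:14448150-14598051, minus strand) stood at 351 and 484 CPM in controls and 104 and 157 CPM in CKO members. It fell by 1.71 on the log2 scale (SE 0.28, adjusted p = 0.0127), and by 1.21 without the deep members, where its adjusted p was 0.067. Tle2 (ENSMUSG00000034771; chr10:81574561-81590845) stood at 61.4, 65.1, 12.8 and 14.9 CPM and fell by 2.21 (SE 0.38, adjusted p = 0.0173). Tle1 (ENSMUSG00000008305; chr4:72117142-72200919, minus strand) went the other way, from 121 and 146 CPM to 290 and 354 CPM, with a log2 change of 1.25 (SE 0.24, adjusted p = 0.0375), and 1.49 (adjusted p = 0.00362) without the deep members. For each of the 3 genes both CKO libraries lay outside the range of the controls.

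These 3 were the called genes among 54 tested of 56 listed transcription factors and co-factors, whose median log2 change was 0.08. Lhx2 and Lhx9 were at 263 ± 33.5 and 636 ± 187 CPM in controls and 277 ± 38.7 and 570 ± 176 CPM in CKO members (SD, n = 2 each), with log2 changes of 0.08 and −0.15. Meis1 stood at 306 ± 11.9 and 566 ± 19.0 CPM (SD, n = 2 each; log2 change 0.89, adjusted p = 0.11). It was called without the deep members (1.10, adjusted p = 0.0307), as was Tshz2, a zinc finger factor (1.51, adjusted p = 0.00535).

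Pcdh17 (ENSMUSG00000035566; chr14:84443563-84539002), a protocadherin that acts in adhesion between axons and at synapses, stood at 842 and 607 CPM in controls and 91.3 and 244 CPM in CKO members. It fell by 2.17 on the log2 scale (SE 0.36, adjusted p = 0.016), and by 1.81 without the deep members (adjusted p = 0.0252). Thinned, 59.4% and 47.6% of control members and 14.6% and 29.2% of CKO members had a Pcdh17 UMI (unthinned 76.0%, 63.6%, 33.3% and 47.7%). It was the only called gene among 40 tested of 51 cadherin and adhesion genes. Cacna2d3, a calcium channel subunit, fell by 2.35 (SE 0.41, adjusted p = 0.0173), the only call among 24 ion channel genes. Usp29, a ubiquitin protease gene, fell by 1.68 (SE 0.26, adjusted p = 0.0109). Without the deep members Cacna2d3 and Usp29 had adjusted p of 0.0949 and 0.122.

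**Figure D4:**
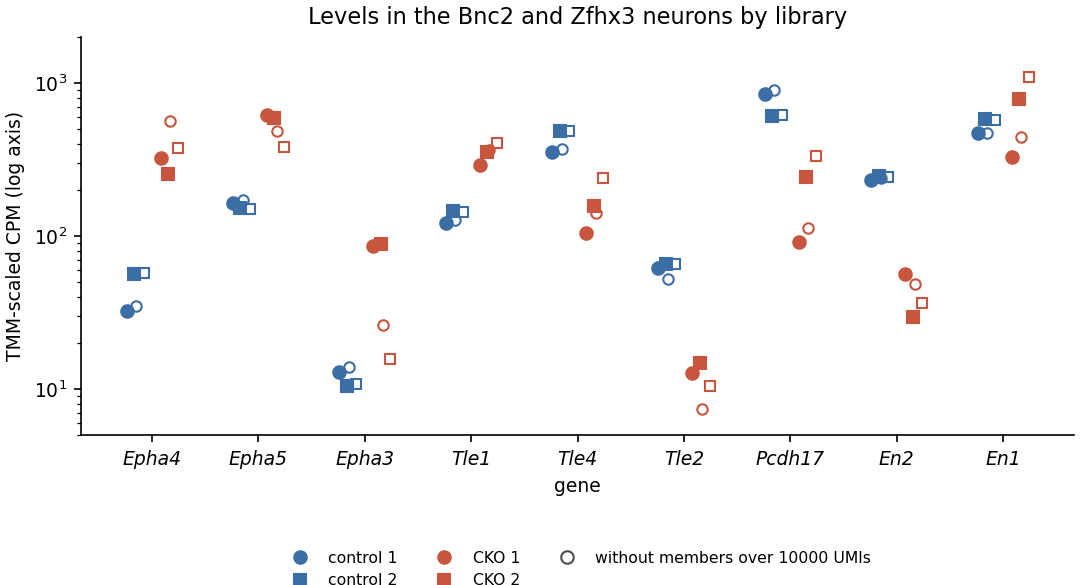
TMM-scaled CPM (log axis) of 9 genes in the UMI sums of the members of each library; filled points use all members and open points leave out members over 10000 UMIs. Epha4, Tle1, Tle2, Pcdh17 and En2 keep the order of the groups in both, Epha3 reaches 86.5 and 89.1 CPM with the deep members and 26.1 and 15.7 CPM without them, still above both controls, and En1 overlaps between groups.

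Signalling genes rose at lower levels. Tgfb2, a ligand of the TGF-beta family, had 6, 3, 31 and 22 UMIs, or 9.70, 2.24, 49.7 and 65.4 CPM, with a log2 change of 3.52 (SE 0.54, adjusted p = 0.0109). Sel1l3 stood at 14.54, 12.7, 75.3 and 152 CPM (log2 change 3.0, SE 0.39, adjusted p = 0.00271). Sfrp2, a secreted Wnt modulator, stood at 6.47, 5.99, 33.6 and 44.6 CPM (log2 change 2.60, adjusted p = 0.0321). Grin3a, a subunit of NMDA receptors, was the only call among 38 synaptic genes (log2 change 2.00, adjusted p = 0.0375). Socs2, Arpp21 and Sulf2, chosen here after their values were seen, rose by log2 changes of 1.76, 1.77 and 1.61. Tgfb2, Sel1l3, Grin3a, Socs2, Arpp21 and Sulf2 were also called without the deep members, at log2 changes of 1.99 to 3.97.

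Several histone and dividing-cell genes that rose had the opposite sign without the deep cells. Hist1h1b, a linker histone of dividing cells, stood at 59.8 and 50.9 CPM in controls and 211 and 383 CPM in CKO members (log2 change 2.41, SE 0.31, adjusted p = 0.00238). Without members over 10000 UMIs its log2 change was −0.54. Hist1h2ap went from 2.04 to −0.69 and Top2a, a topoisomerase of dividing cells, from 1.44 to −1.58. Hist1h1a, Clspn, Tpx2, Atad2 and Cdk1, also called higher, had too few counts for a test without those members. Members over 10000 UMIs in the CKO libraries held 1028 and 968 CPM of 6 cycling genes, against 110 and 159 CPM in the other CKO members and 288 and 173 CPM in those of the controls. Of the 38 called genes, 26 could be tested without the deep cells, 13 of them were called there, 10 higher and 3 lower, and 7 had the opposite sign.

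**Figure D5:**
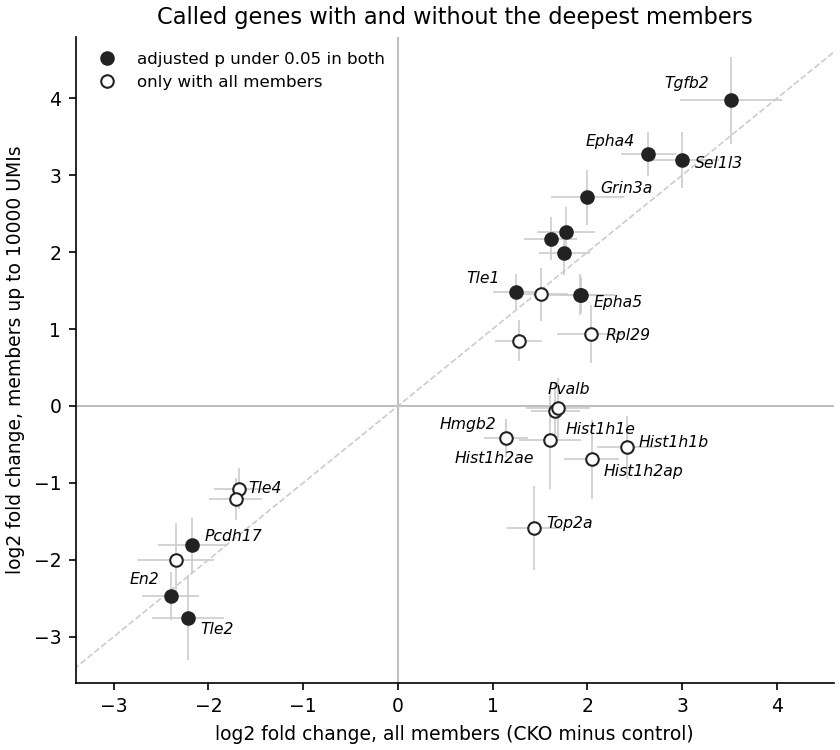
Log2 fold change, CKO minus control, of the called genes in all members (horizontal axis) and in members of up to 10000 UMIs (vertical axis), with SE bars, for the 26 of 38 genes that could be tested in both; the dashed line marks equal values. Filled points, called in both, lie near the line, and Hist1h1b, Hist1h2ap and Top2a fall below 0 on the vertical axis.

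In members of up to 10000 UMIs, 28 of 6889 genes passed the same test (0.406%), 22 of them up (0.319%) and 6 down (0.0871%). Beside the 13 above they held Nrg1, which encodes a ligand of ErbB receptors (log2 change 1.49, adjusted p = 0.0161), Sorcs3, a sorting receptor (2.49, adjusted p = 0.00658), and Nrcam, an adhesion protein of axons (1.37, adjusted p = 0.0252). Ier5, an immediate early gene, was lower there (−1.83, adjusted p = 0.0324). These genes were chosen after their values were seen.

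The count of calls rests on few libraries. Without control replicate 1 it was 75, without control replicate 2 it was 49, without CKO replicate 1 it was 166, and without CKO replicate 2 it was 380. Leaving out the cells marked as likely doublets, 28 of the 867 members, left 9 genes. Epha4, Epha3, Tgfb2, Sel1l3 and En2 were still called there, while Tle2, Tle4, Pcdh17, Cacna2d3, Usp29 and Hist1h1b kept their sign and were no longer called.

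The remaining gene lists gave no call in all members. None of 5 tested genes of the contactin and Cntnap family was called, although Cntn2, an axonal adhesion protein that granule cells also express, stood at 462 ± 71.0 and 951 ± 139 CPM (SD, n = 2 each; log2 change 1.03, adjusted p = 0.091). None of 13 matrix and integrin genes was called, among them Fras1, a basement membrane protein of the complex that anchors nephronectin (log2 change −1.06, adjusted p = 0.184). The 14 neuropeptide and modulator genes had a median log2 change of −0.42, the 18 p53 and apoptosis genes one of −0.14, and the 15 dissociation stress genes one of 0.44, with 0 calls in each. Without the deep members several list medians turned, also in the adhesion and synaptic lists, which had a call each. The adhesion list went from −0.17 to 0.42 and the synaptic list from −0.25 to 0.22. The neuropeptide list went from −0.42 to 0.18 and the p53 list from −0.14 to 0.02. The dissociation stress list went from 0.44 to −0.005, beside −0.01 over all genes. At 2 libraries a group the simulated fit called 35% of genes changed by 2-fold and 91% of those changed by 4-fold, so smaller differences can be missed. The changed genes were drawn from those with at least 20 CPM on average, so these shares do not cover lower genes. The same simulation gave 5 false calls.

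Members were then set against 3 of the 4 other Meis2 classes, in one model over sums with at least 10 cells, with the library as block. The Rflna and Hopx neurons, 223 cells, were in the model but were not compared with members. The 3 comparisons share the members' sums. Against the Grm5 and Bcl11b neurons, in control replicates 1 and 2 and CKO replicate 1, 100 of 6284 genes differed (1.59%), with 58 above (0.923%) and 42 below (0.668%) in members. Without control replicate 2, which holds 125 of the 176 cells of that class, 35 were called. Transcription factors were prominent on both sides: of 54 tested, 8 were higher and 8 lower. Lhx2 stood at 277 ± 32.8 CPM in members and 75.5 ± 44.0 CPM in the other class (SD, n = 3 libraries; log2 change 1.90, adjusted p = 8.68e-07). Zfhx4, a relative of Zfhx3 that the rule did not use, stood at 222 ± 15.4 and 38.2 ± 17.8 CPM (SD, n = 3 libraries; log2 change 2.34, adjusted p = 2.19e-08). The POU factors Pou3f1, Pou3f2 and Pou3f4, the Iroquois factors Irx1 and Irx2, and Onecut1 were also higher in members. Without cells over 10000 UMIs, 75 of 2928 genes were called, 68 of them also called with all cells. Lhx2, Zfhx4, Irx1 and Irx2 were among these, and Pou3f1, Pou3f2, Pou3f4 and Onecut1 were not.

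Lower in members than in the Grm5 and Bcl11b neurons were Nr2f1, an orphan nuclear receptor, at 120 ± 34.9 against 412 ± 113 CPM (SD, n = 3 libraries; log2 change −1.71, adjusted p = 1.55e-08), and Nr2f2, Ebf2, Ebf3, Neurod6, Bcl11a, Lmo3 and Tcf4. Kcnk9, a leak potassium channel, stood at 35.6 ± 3.47 and 265 ± 244 CPM (log2 change −2.54, adjusted p = 2.7e-10). Robo3 was lower in members (log2 change −1.34), and Epha4, Nrp1 and Robo2 were higher. Among adhesion and matrix genes, Fras1, C1ql4, a synaptic C1q-like protein, and the glypican Gpc6 were higher in members, and Pcdh7, Pcdh10, Sdk2, Nxph1 and Spock3 lower. Fras1, Gpc6 and Armh4 had 0 UMIs in the 16 cells of control replicate 1. Lmo3, Fras1, Sdk2 and Spock3 were not among the genes called without cells over 10000 UMIs.

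Against the Gria1 and Col25a1 neurons only the 2 control libraries had enough cells, 22 and 28. Of 6284 genes 13 differed (0.207%), with 3 above (0.0477%) and 10 below (0.159%) in members, and the 3 higher ones, Zfhx3, Bnc2 and Vstm2l, are genes of the rule. Of the lower ones 6 are not: Robo3 (187 ± 26.1 against 568 ± 109 CPM, SD, n = 2; log2 change −1.21, adjusted p = 0.0461), Ebf1, Islr2, Atp1b1, Cd47 and Armh4, at log2 changes of −1.05 to −2.0. Without control replicate 1 the calls numbered 5, and without control replicate 2 they numbered 7. Without cells over 10000 UMIs Ebf1 had an adjusted p of 0.0505. Lhx2 and Lhx9 had log2 changes of 0.14 and −0.20 in the comparison with all cells. Islr2 is a membrane protein of growing axons, Cd47 a ligand of phagocyte receptors and Atp1b1 a subunit of the sodium pump.

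Against the Foxp2 and Nr4a2 neurons, in control replicate 2 and both CKO libraries with 26, 10 and 11 cells, 139 of 6284 genes were called (2.21%). Of them 65 were higher (1.03%) and 74 lower (1.18%) in members, 46.8% higher. With RLE factors 39 of 122 were higher, 32.0%, and with DESeq2 26 of 103, 25.2%, so the balance between directions depends on the scaling, while the median over all genes moved from 0.09 to −0.02 and −0.002. Without CKO replicate 1 the count was 59. Of the synaptic genes 5 of 34 were lower and 1 higher, of the ion channel genes 3 of 21 were lower and 0 higher, and of the adhesion genes 7 of 36 were lower and 0 higher, while most of each list was not called. Their median log2 changes were −0.61, −0.65 and −0.36. Without cells over 10000 UMIs the lower calls were 4 of 24, 1 of 15 and 4 of 26. Over all genes tested in that setting 43 of 2928 were lower and 24 higher. Scg2, a secretogranin of dense-core vesicles, stood at 90.7 ± 9.79 CPM in members and 605 ± 441 CPM in the Foxp2 and Nr4a2 neurons (SD, n = 3 libraries; log2 change −2.88, adjusted p = 4.04e-13). Gria2, an AMPA receptor subunit, stood at 1071 ± 266 and 2184 ± 1278 CPM (log2 change −0.91, adjusted p = 0.0018). Nrp2, a semaphorin co-receptor, was at 22.0 ± 7.09 and 140 ± 86.6 CPM (log2 change −2.81, adjusted p = 0.000212).

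Higher in members than in the Foxp2 and Nr4a2 neurons were the factors Nhlh2, Pou3f2, Nfib, Sox11 and Onecut2, and the axonal adhesion gene Cntn2. Nhlh2 was not among the genes called without cells over 10000 UMIs, and the others were. Cntn2 stood at 805 ± 276 and 263 ± 117 CPM (SD, n = 3 libraries; log2 change 1.36, adjusted p = 0.0017). The homeodomain gene Meis3 had 0 UMIs in the Foxp2 and Nr4a2 neurons of all 3 libraries, so its 53.4 ± 5.93 CPM in members is at least 2.68-fold higher, against a floor of 3 counts over that class. Palmd stood at 128 ± 64.7 and 28.5 ± 25.0 CPM (log2 change 2.23, adjusted p = 0.0182). Cxcr4, the chemokine receptor, and Spry2, an inhibitor of growth factor signalling, had 1 UMI each in that class.

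Whether the CKO effect in members differed from that in other classes was tested weakly, against the Gria1 and Col25a1 and the Grm5 and Bcl11b neurons only. No such fit was made for the Rflna and Hopx neurons, which had 26 and 57 cells in controls and 103 and 37 in the CKO libraries. Against the Gria1 and Col25a1 neurons, with 3 and 1 CKO cells, 0 of 5034 genes were called by edgeR or DESeq2, and 295 had an unadjusted p under 0.05 by edgeR. Against the Grm5 and Bcl11b neurons, with 26 and 9 CKO cells, 0 of 7164 genes were called by either tool, and 175 had an unadjusted p under 0.05 by edgeR. For Epha4 the difference from the Grm5 and Bcl11b neurons was −0.06 on the log2 scale (SE 0.66), which had 0 and 5 Epha4 UMIs in controls and 12 and 1 in the CKO libraries. For Epha5 it was 0.70 (SE 0.43), for En2 1.88 (SE 0.97), for Tle4 −1.28 (SE 0.47) and for Pcdh17 −1.25 (SE 0.42), each with an adjusted p of 1.00. In simulated data this test called 25% of 4-fold differences among genes of at least 20 CPM on average. A change shown above in members is thus not shown to be theirs alone.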

How the data were processed

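Cells sorted for tdTomato from the E14.5 cerebellum were profiled by 10x Genomics 3′ chemistry, per the labels' protocols. The authors deposited raw counts of UMIs per gene and barcode, made with Cell Ranger 5.0.0 on mm10, per the submitters' processing notes. Barcodes were kept from 500 genes and 1000 UMIs upward, with mitochondrial UMIs up to 10%. The members, the classes and the gene lists were chosen with earlier results of these data known. Likely doublets, marked by their share of simulated doublets among neighbouring cells at a rate of 0.8% per 1000 cells, stayed in, and an alternative leaves them out.

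UMIs were summed per library and class, so libraries are the replicates. They were tested with edgeR 4.0.16 (TMM, filterByExpr, quasi-likelihood F test, two-sided, Benjamini-Hochberg over all genes tested, threshold 0.05; the SE divides that log2 ratio by the root of F) in R 4.3.3, with DESeq2 1.42.0 as an alternative. Class sums needed at least 10 cells in the class comparisons, while the interaction fits had no such minimum and used sums of as few as 1 cell. With 2 libraries a group, p-values measure only the spread between these libraries. The fits were tested on simulated data. Wilson intervals cover counting error only. Coordinates are GENCODE M21 (GRCm38), which holds 32235 of the 32285 gene IDs.

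Named were En1, En2 and, in CKO against control, at most 12 called genes that rose and 12 that fell, by size of change. Class comparisons took at most 10 in each direction. All had at least 20 CPM on average in a group and libraries of one group on the same side of the other. Called members of each gene list, up to 4, or else its 2 most abundant were added. Sex-linked, mitochondrial, haemoglobin and rule genes were left out, and other genes named with values were chosen after those were seen.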

Additional observations from a re-analysis of the deposited data

How the results depend on the processing

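Of 825 single-gene results under alternatives, 612 kept direction and call, 202 kept direction and lost the call, and 11 reversed. CKO against control gave 34 calls with DESeq2, 206 without a low-count filter, 137 with a marker sum of at least 3, 183 with at least 2 marker genes, 121 in cells of at least 1500 genes, 9 without doublets and 14 after thinning to 1500 UMIs, where 2787 genes were tested. The replicate block gave 43 calls. Shared replicate numbers did not deviate together (correlation −0.20 over 8177 genes), and the crossed block, chosen after seeing the data, gave 386. Leaving out 1 library gave 49 to 380 calls in CKO against control, 5 to 18 against the Gria1 and Col25a1 neurons, 35 to 107 against the Grm5 and Bcl11b neurons and 59 to 180 against the Foxp2 and Nr4a2 neurons. Calls against the Gria1 and Col25a1 neurons were 7 with DESeq2, 27 with 2 marker genes, 4 with 1500 genes and 5 at 5% mitochondrial UMIs. Those against the Grm5 and Bcl11b neurons were 52, 27 at 5% mitochondrial UMIs and 31 thinned. Those against the Foxp2 and Nr4a2 neurons were 223 without the filter, 54 with a sum of 3, 30 with 2 marker genes, 34 with 1500 genes, 8 thinned and 67 without cells over 10000 UMIs, an alternative chosen after seeing the data. The interaction with the Gria1 and Col25a1 neurons gave 1 call with 2 marker genes, 3 without doublets and 0 to 69 with 1 library left out. The one with the Grm5 and Bcl11b neurons gave 2 with a sum of 3, 1 with 2 marker genes, 1 at 5% mitochondrial UMIs, 1 without cells over 10000 UMIs and 0 to 12 with 1 library left out. The log2 ratio of shares was −0.67 thinned and −1.32 over all kept cells, and −0.60 to −0.24 with 1 library left out. Reversed were En1, at −0.036 and −0.052 under the 2 blocks, −0.077 with a sum of 3, −0.27 with 2 marker genes, −0.19 with 1500 genes, −0.29 at 5% mitochondrial UMIs and −0.69 to 0.57 with 1 library left out. Without cells over 10000 UMIs Hist1h1b was at −0.54 and Hist1h2ap at −0.69, and Mab21l2 against the Foxp2 and Nr4a2 neurons was at 1.74 with 1500 genes. Where not stated, the cause was not tested. The interaction with the Gria1 and Col25a1 neurons at 1500 genes and thinned, and the Foxp2 and Nr4a2 comparison at 5% mitochondrial UMIs, were not run, for lack of cells. Depth limits low genes: at 1500 UMIs a cell, a level of 100 CPM is under 1 UMI.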
